A study of Mus musculus with 4 samples.

Results

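The G2/M and mitosis genes are the transcripts that cells make as they prepare for and pass through division. They were measured here in double positive thymocytes, immature T cells that carry both CD4 and CD8, from 4 mice on Affymetrix mouse arrays, 1 array per mouse. A set of 40 genes was named, and a probe set (a group of array probes read out as a single value) belonged to it when the platform annotation gave it only that gene's symbol. This rule found 88 of 45037 probe sets, for 39 of 18193 genes; Ccnb1 had no such probe set and was not analysed here. Each gene was represented by its brightest probe set, and all 39 genes lay above the signal cut that 10916 genes passed.

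The 2 groups were Ikf/f CD4-Cre+ mice (Cre+ below; samples 1 and 2) and Ikf/f CD4-Cre- mice (Cre- below; samples 1 and 2). Both carry the Ikf/f allele of Ikzf1, which encodes the lymphoid zinc finger protein Ikaros, and the Cre+ mice also carry a CD4-Cre transgene meant to delete it, with Cre made under Cd4 regulatory sequence in T lineage cells. No Cre+ mice without the Ikf/f allele were included, so an effect of Cre itself cannot be told apart from that of Ikaros loss. How old the mice were, their sex and how the cells were isolated is not stated in the labels. Values are RMA signals on the log2 scale, so a difference of 1 is a doubling of signal. Array medians lay between 5.19 and 5.25. Ikzf1, the targeted gene, read 10.80 and 10.62 in Cre+ samples 1 and 2, against 12.40 and 12.08 in Cre- samples 1 and 2, a difference of −1.53 ± 0.16 (SE; limma adjusted p = 0.024). A dimmer Ikzf1 probe set read 5.35 and 5.74 in Cre+ samples, against 5.73 and 5.81 in Cre- samples (difference −0.22, limma adjusted p = 0.507). Where the Ikzf1 probes lie relative to the deleted part is not stated in the labels. The 10 double positive markers measured had median levels of 12.28 and 12.35 in Cre+ samples, against 12.47 and 12.53 in Cre- samples, and 7 of the 10 were lower in both Cre+ arrays than in both Cre- arrays, against 18.9% of tested genes.

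In a dividing cell, cyclin B and cyclin A bound to the kinase CDK1 drive entry into mitosis, kinesins and microtubule-binding proteins build the spindle, kinetochore proteins attach it to the chromosomes, the spindle checkpoint holds the cell until all are attached, and the anaphase-promoting complex then releases the sister chromatids. Transcripts of these proteins accumulate together late in the cycle, under the MuvB complexes, B-MYB and FOXM1, and are repressed together in resting cells by the DREAM complex. In the thymus most double positive cells are small and do not divide, and the dividing ones are mainly the large blasts that have just arisen from double negative precursors. In whole-population RNA a larger share of dividing cells and more of these transcripts per dividing cell cannot be told apart.

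The shared control of these genes can be read in part from their promoters, so the upstream sequences of 7 members are shown, taken from RefSeq (GRCm38.p6). The set holds members of different roles, and Birc5 is included because its window holds neither motif. Each line gives the 120 bases before the annotated start, 5′ to 3′ on the gene's strand, with capitals on each match to the cell cycle genes homology region (CHR, letters TTTGAA, or TTCAAA on the other strand), a site bound by MuvB complexes, and to the CCAAT box (letters CCAAT, or ATTGG on the other strand), a site bound by NF-Y. The windows lie at chr10:69352913-69353032 (minus strand) for Cdk1, chr4:118437344-118437463 (minus strand) for Cdc20, chr2:164769809-164769928 (plus strand) for Ube2c, chr19:37376262-37376381 (plus strand) for Kif11, chr11:99024190-99024309 (minus strand) for Top2a, chr7:135716380-135716499 (minus strand) for Mki67 and chr11:117849117-117849236 (plus strand) for Birc5.
Cdk1: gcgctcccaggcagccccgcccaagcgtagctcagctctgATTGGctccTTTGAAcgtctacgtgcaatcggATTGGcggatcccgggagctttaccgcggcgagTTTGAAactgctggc
Cdc20: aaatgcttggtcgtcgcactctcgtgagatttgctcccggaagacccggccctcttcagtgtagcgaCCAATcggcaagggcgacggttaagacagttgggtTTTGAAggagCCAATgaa
Ube2c: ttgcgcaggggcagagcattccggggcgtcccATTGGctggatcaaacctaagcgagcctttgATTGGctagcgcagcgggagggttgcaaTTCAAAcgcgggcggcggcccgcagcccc
Kif11: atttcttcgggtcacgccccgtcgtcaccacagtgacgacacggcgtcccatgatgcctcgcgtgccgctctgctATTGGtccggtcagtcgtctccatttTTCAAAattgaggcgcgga
Top2a: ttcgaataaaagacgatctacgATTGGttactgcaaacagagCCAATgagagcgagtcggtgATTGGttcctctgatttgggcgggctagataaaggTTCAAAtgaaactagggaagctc
Mki67: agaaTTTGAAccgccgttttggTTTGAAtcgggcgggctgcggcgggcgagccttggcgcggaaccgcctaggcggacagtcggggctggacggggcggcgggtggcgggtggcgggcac
Birc5: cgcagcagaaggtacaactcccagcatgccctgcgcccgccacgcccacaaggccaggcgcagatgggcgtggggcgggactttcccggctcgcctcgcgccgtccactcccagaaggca
The first base of a CHR match lay 15 bases before the start in Cdk1, 18 in Cdc20, 29 in Ube2c, 19 in Kif11 and 23 in Top2a, whereas in Mki67 the nearest lay 98 bases before it. Of the 40 named genes, 33 had a promoter entry of 300 bases on the chromosomes searched, 250 before the start and 50 after it. The search left out 1 chromosome, so its genes count here as having no entry. On either strand, TTTGAA was found in 24 of the 33 (72.7%), against 1246 of 8902 tested genes with an entry (14.0%) and 20.2% of all 27025 genes with an entry. CCAAT was found in 25 of the 33 (75.8%), against 42.9% of the tested genes. Both motifs, which can share at most 1 base, were found in 21 members (63.6%), against 5.77% of the tested genes. Measured members with TTTGAA had a median difference, Cre+ minus Cre-, of 0.83 on the log2 scale (24 genes, 0.19 to 1.22), and those without it a median of 0.76 (8 genes, 0.50 to 0.90). A match describes letters in a window and does not show a bound site.

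The mitotic genes were higher in the Cre+ mean for all 39 members, and for each of them the group difference was smaller than the gap between the mice of a group, averaged over both groups. The median difference was 0.78, or 1.72-fold, with a range of 0.03 (Foxm1) to 1.22 (Cenpf); the median over all tested genes was 0.07, and 61.4% of them had a higher Cre+ mean. The limma test sets each gene against its own spread, drawn toward a value shared across genes. In limma 0 of 39 members passed an adjusted p of 0.05 and 0 had an unadjusted p under 0.05. Over all tested genes 1.47% passed, 1.17% higher and 0.293% lower, and 21.4% had an unadjusted p under 0.05. The members' adjusted p-values ran from 0.282 to 0.96. A p that misses the threshold does not show that the groups were alike. With 2 arrays a group, the smallest p that an exact two-sided permutation test allows for one gene is 0.333.

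The 4 arrays fell in the same order for every member. Cre- sample 1 was lowest, then Cre+ sample 1, then Cre- sample 2, and Cre+ sample 2 was highest, in 39 of 39 members; 4.66% of all tested genes had that order. Both Cre+ arrays lay above both Cre- arrays for 0 of 39 members, against 35.0% of tested genes. Cre+ sample 1 lay above Cre- sample 1 by a median of 0.77, Cre+ sample 2 above Cre- sample 2 by 0.78, and Cre+ sample 1 minus Cre- sample 2 had a median of −0.32. As members are expressed together, this is a single pattern seen in 39 genes on 4 arrays, not 39 observations of it.

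**Figure D1:**
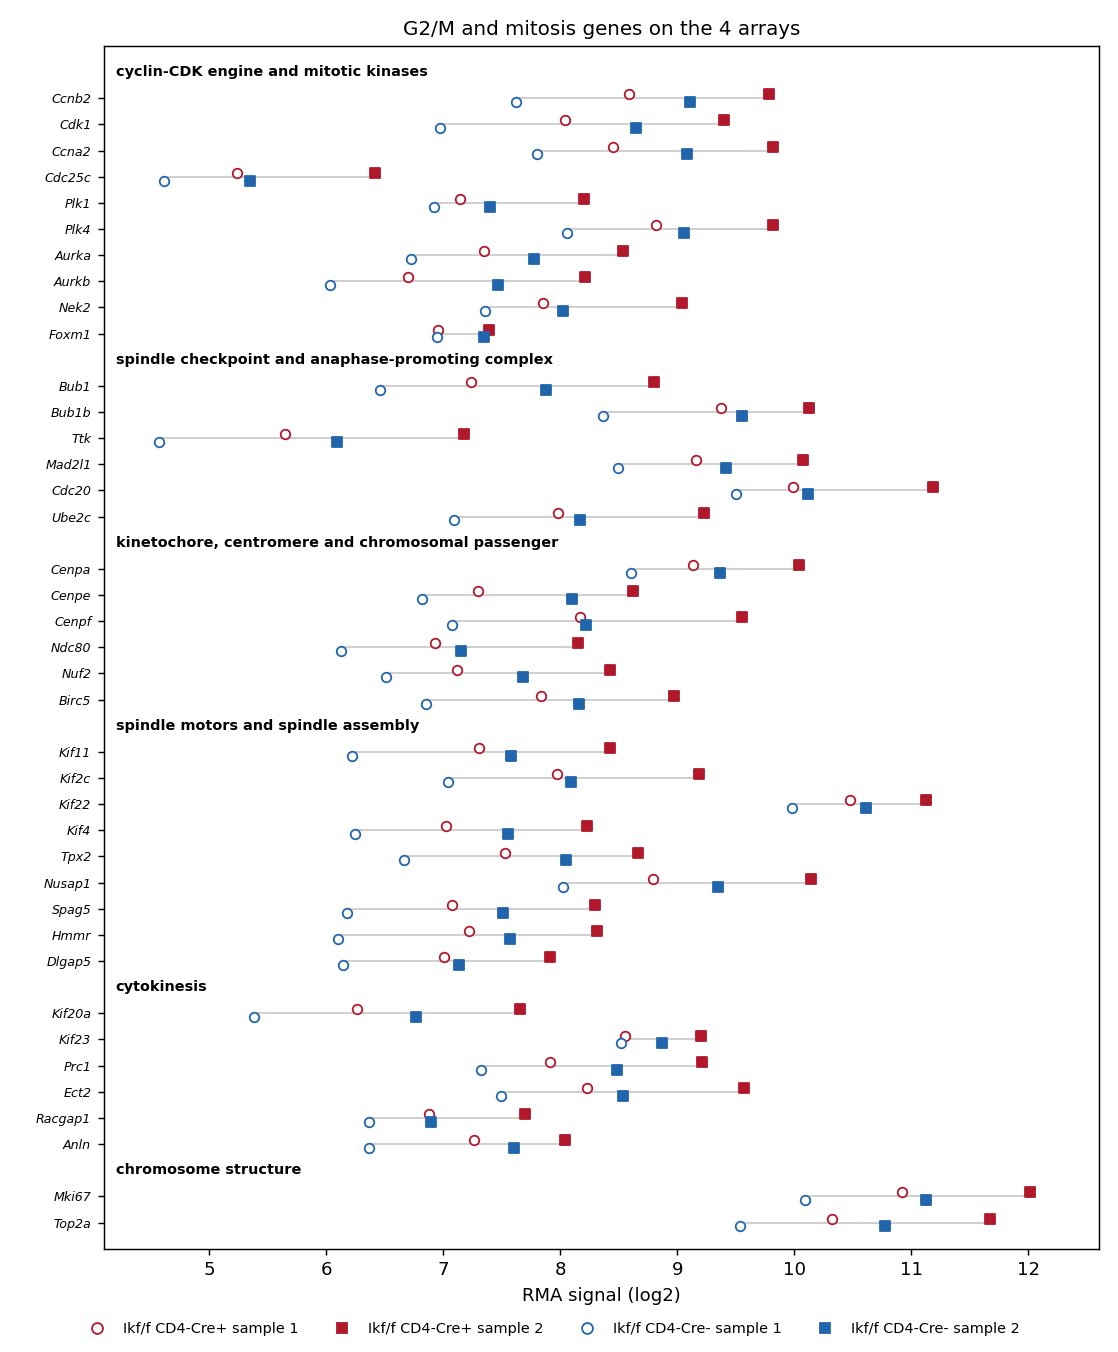
Signal of the 39 G2/M and mitosis genes on each array, grouped by role. The horizontal axis is the RMA signal (log2); each row is a gene, with the Cre+ arrays (red, upper) and the Cre- arrays (blue, lower) as single points, circles for sample 1 and squares for sample 2. In every row Cre- sample 1 lies leftmost and Cre+ sample 2 rightmost, with Cre+ sample 1 left of Cre- sample 2.

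Among the genes that drive mitotic entry, Cdk1, the mitotic kinase itself, read 8.04 and 9.40 in Cre+ samples 1 and 2, against 6.97 and 8.65 in Cre- samples 1 and 2. Its difference was 0.91 ± 0.66 (SE; limma adjusted p = 0.48), the SE reflecting gaps of 1.36 between the Cre+ mice and 1.67 between the Cre- mice. Ccnb2, which encodes a B cyclin partner of CDK1, read 8.59 and 9.78 in Cre+ samples, against 7.62 and 9.11 in Cre- samples. Ccna2, the cyclin of S phase and G2, read 8.45 and 9.82 in Cre+ samples, against 7.80 and 9.09 in Cre- samples. For both cyclins the groups overlapped, with Cre+ sample 1 below Cre- sample 2. Cdc25c, a phosphatase that activates CDK1, was the dimmest of the group at 5.24 and 6.42 in Cre+ samples, against 4.61 and 5.35 in Cre- samples. Its difference of 0.85 ± 0.43 (SE; limma adjusted p = 0.332) was smaller than the gap of 1.18 between the Cre+ mice. It was larger than the gap of 0.74 between the Cre- mice.

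The mitotic kinases repeated this arrangement with gaps of different size. Plk1, a kinase needed from mitotic entry to cytokinesis, read 7.14 and 8.20 in Cre+ samples, against 6.92 and 7.40 in Cre- samples, a difference of 0.51 ± 0.37 (SE). Plk4, which controls centriole duplication, read 8.82 and 9.82 in Cre+ samples, against 8.06 and 9.06 in Cre- samples. The mice of a group were 1.00 apart in both groups for Plk4, more than its group difference of 0.76. Aurka, the centrosome and spindle pole kinase, differed by 0.69 ± 0.49 (SE), and Aurkb, the kinase of the chromosomal passenger complex, by 0.71 ± 0.64 (SE). Aurkb read 6.70 and 8.21 in Cre+ samples, against 6.03 and 7.47 in Cre- samples. Nek2, a centrosome kinase, differed by 0.76 ± 0.42 (SE; limma adjusted p = 0.369). Foxm1, the transcription factor of the set, had the smallest difference, 0.03 ± 0.21 (SE; limma adjusted p = 0.96), at 6.96 and 7.39 in Cre+ samples, against 6.95 and 7.35 in Cre- samples. Its arrays separated by sample number and hardly by group. A dimmer Foxm1 probe set read 5.79 and 6.80 in Cre+ samples, against 5.37 and 5.66 in Cre- samples, and there the groups did not overlap (difference 0.78).

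Genes of the spindle checkpoint and of the anaphase-promoting complex that it restrains had a median difference of 0.82. Ttk, the kinase at the head of the checkpoint, had the widest range of all 39 members. It read 5.65 and 7.17 in Cre+ samples, against 4.57 and 6.09 in Cre- samples, so that the highest array was 6.09-fold above the lowest, while the group difference was 1.08 ± 0.66 (SE; limma adjusted p = 0.405). Bub1, a checkpoint kinase of the kinetochore, read 7.24 and 8.80 in Cre+ samples, against 6.46 and 7.87 in Cre- samples. Bub1b and Mad2l1, which encode parts of the complex that blocks the anaphase-promoting complex, differed by 0.79 ± 0.44 and 0.66 ± 0.40 (SE). Cdc20, the activator that this complex binds, read 9.99 and 11.18 in Cre+ samples, against 9.50 and 10.11 in Cre- samples. Cre+ sample 2 stood 1.20 above Cre+ sample 1 for Cdc20, a larger gap than the 0.61 between the Cre- samples. Ube2c, the ubiquitin-conjugating enzyme of the complex, read 7.98 and 9.23 in Cre+ samples, against 7.09 and 8.17 in Cre- samples (difference 0.97 ± 0.51, SE; limma adjusted p = 0.34).

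At the kinetochore and centromere, Cenpf, a large kinetochore and nuclear matrix protein, had the largest difference of all members and the smallest p. It read 8.17 and 9.56 in Cre+ samples, against 7.07 and 8.22 in Cre- samples, a difference of 1.22 ± 0.55 (SE; limma adjusted p = 0.282). Cre+ sample 1 and Cre- sample 2 were nearly level, 0.05 apart. Cenpa, the histone variant that marks centromeres, differed by 0.61 ± 0.37 (SE), and Cenpe, a kinetochore kinesin, by 0.50 ± 0.57 (SE). Ndc80 and Nuf2 encode partners in the complex that binds microtubules. Ndc80 read 6.93 and 8.15 in Cre+ samples, against 6.13 and 7.15 in Cre- samples, and Nuf2 differed by 0.67 ± 0.54 (SE). Birc5, the survivin subunit of the chromosomal passenger complex, whose promoter window above holds neither motif, read 7.84 and 8.97 in Cre+ samples, against 6.85 and 8.16 in Cre- samples (difference 0.90 ± 0.53, SE; limma adjusted p = 0.391). The groups overlapped for all 6 genes of this role.

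Spindle motors and spindle assembly factors had a median difference of 0.82 over 9 genes. Kif11, the motor that pushes spindle poles apart, read 7.31 and 8.42 in Cre+ samples, against 6.22 and 7.58 in Cre- samples. Kif2c, a kinesin that shortens microtubules at centromeres, read 7.97 and 9.18 in Cre+ samples, against 7.04 and 8.09 in Cre- samples (difference 1.01 ± 0.49, SE; limma adjusted p = 0.314). Kif4 and Kif22, which move chromosome arms, differed by 0.73 ± 0.54 and 0.51 ± 0.29 (SE). Kif22 was bright, at 10.47 and 11.13 in Cre+ samples, against 9.98 and 10.61 in Cre- samples, and its arrays lay closer together than those of Kif11. Tpx2, which starts microtubule growth near chromosomes, differed by 0.74 ± 0.55 (SE). Hmmr, a spindle protein that works with TPX2, read 7.22 and 8.31 in Cre+ samples, against 6.10 and 7.57 in Cre- samples. For both, Cre- sample 1 was the lowest array. The spindle proteins Nusap1, Spag5 and Dlgap5 differed by 0.78 ± 0.58, 0.84 ± 0.55 and 0.82 ± 0.42 (SE).

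Cytokinesis genes had the smallest median difference of the roles with more than 2 members, 0.67 over 6 genes. Racgap1, a subunit of the centralspindlin complex of the midzone, had the smallest spread relative to its difference. It read 6.88 and 7.70 in Cre+ samples, against 6.36 and 6.90 in Cre- samples (difference 0.66 ± 0.31, SE; limma adjusted p = 0.304). Kif23, the kinesin partner of Racgap1 in that complex, differed by 0.19 ± 0.25 (SE), at 8.56 and 9.21 in Cre+ samples, against 8.52 and 8.87 in Cre- samples. The partners thus had differences of unlike size on these arrays, and the gap between them was not tested. Kif20a, a midzone kinesin, read 6.26 and 7.66 in Cre+ samples, against 5.38 and 6.77 in Cre- samples. Prc1, which bundles midzone microtubules, differed by 0.66 ± 0.54 (SE), Ect2, the exchange factor that activates RhoA at the cleavage site, by 0.89 ± 0.52 (SE), and Anln, the furrow scaffold anillin, by 0.67 ± 0.45 (SE).

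The brightest members were the chromosome genes Mki67 and Top2a. Mki67, which encodes the Ki-67 coat protein of mitotic chromosomes and is used as a marker of dividing cells, read 10.92 and 12.01 in Cre+ samples, against 10.09 and 11.13 in Cre- samples (difference 0.86 ± 0.46, SE; limma adjusted p = 0.356). Top2a, the topoisomerase that untangles sister chromatids, read 10.32 and 11.68 in Cre+ samples, against 9.53 and 10.78 in Cre- samples (difference 0.84 ± 0.56, SE; limma adjusted p = 0.448). For both genes each sample 2 was above both arrays numbered 1.

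Averaged over both groups, the mice of a group differed by more than the groups did. Between Cre+ samples 2 and 1 the median gap over the members was 1.19 (0.44 to 1.57), and between Cre- samples 2 and 1 it was 1.16 (0.35 to 1.67). Over all tested genes those gaps had medians of −0.01 and −0.02. In 36 of 39 members sample 2 exceeded sample 1 by at least 0.5 in both groups, against 1.52% of tested genes; Plk1, Foxm1 and Kif23 were the exceptions. The mean gap within groups exceeded the group difference for 39 of 39 members, with a median ratio of 1.41. That count restates the common order of the arrays and is no further result. With sample 2 above sample 1 in both groups, mean gap minus difference equals Cre- sample 2 minus Cre+ sample 1. Racgap1 had the lowest ratio, 1.03, followed by Cenpf at 1.04. The median SE of the members was 0.52, against 0.13 for all tested genes. The median SD within groups was 0.85 for members and 0.13 for all tested genes, and the members' median stood above that of 99.3% of tested genes.

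**Figure D2:**
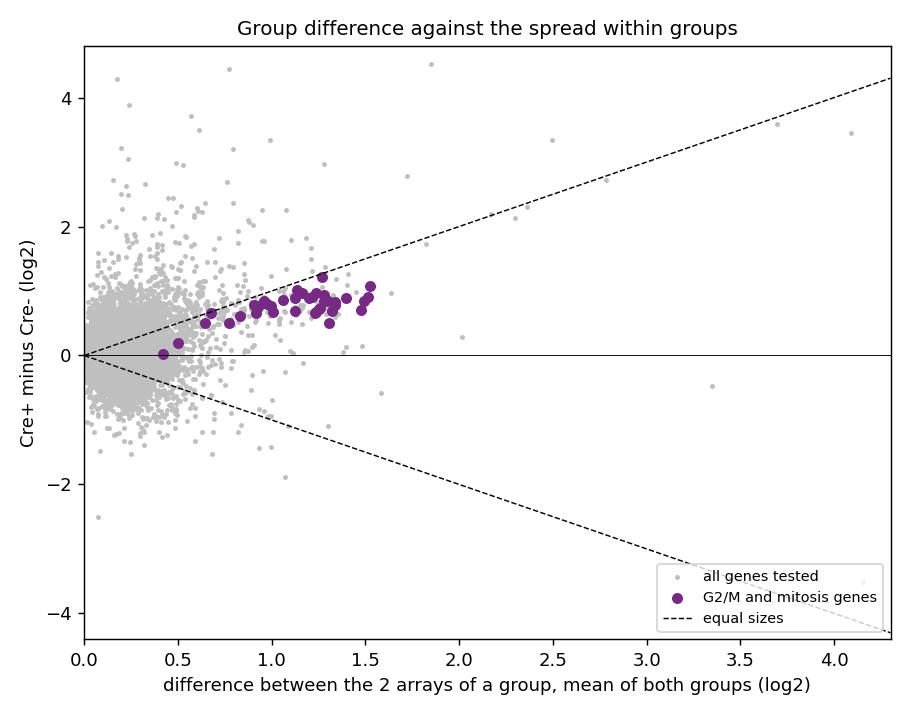
Group difference against the spread within groups for all 10916 tested genes (grey) and the 39 G2/M and mitosis genes (purple). The horizontal axis is the absolute difference between the 2 arrays of a group, averaged over both groups (log2), the vertical axis is Cre+ minus Cre- (log2), and the dashed lines mark equal sizes. All 39 members lie above 0 and below the upper dashed line, to the right of most genes.

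The size of the difference depended on which mice were compared. Without Cre+ sample 1 the median difference was 1.38 with 39 of 39 members higher. Without Cre- sample 2 the median was again 1.38. Without Cre+ sample 2 it was 0.20 with 34 of 39 higher, and without Cre- sample 1 it was 0.20 with 36 of 39 higher. The lone array left in a group was assumed to vary as those of the other group do, so only the differences are given here. Cre- sample 2 was also the array with a high Xist signal, 12.75, against 5.09 and 5.37 in Cre+ samples 1 and 2 and 4.73 in Cre- sample 1. Xist is the transcript of the inactive X chromosome of females. The brightest probe set of Kdm5d, a Y-linked gene, read 8.37 and 8.23 in Cre+ samples 1 and 2. It read 8.29 in Cre- sample 1 and 2.86 in Cre- sample 2. The part of sex in the levels of the mitotic genes was not tested.

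**Figure D3:**
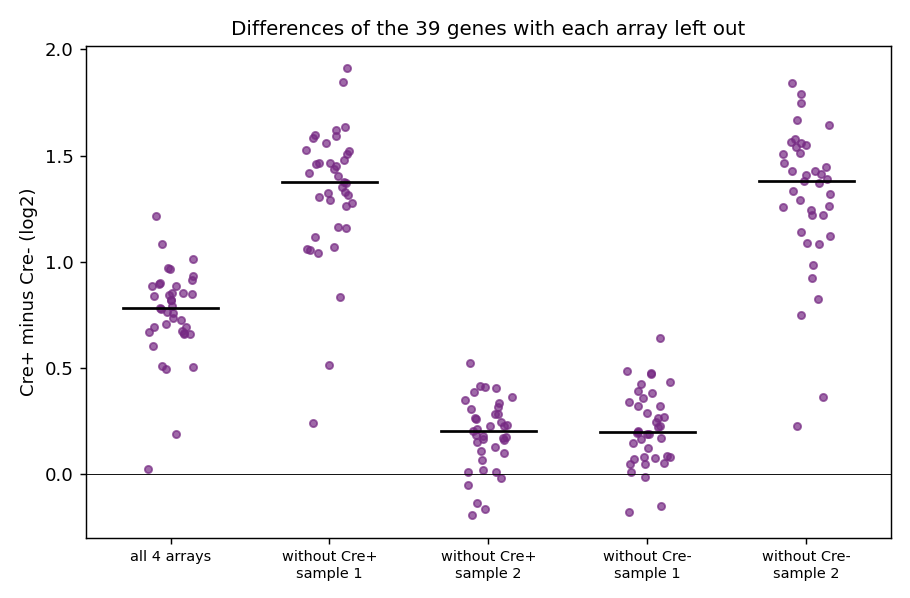
Differences of the 39 G2/M and mitosis genes with all 4 arrays and with each array left out. Each point is a gene, the vertical axis is Cre+ minus Cre- (log2), the horizontal bars are medians and points are spread sideways for legibility. The medians are 0.78 with all arrays, 1.38 without Cre+ sample 1 or Cre- sample 2, and 0.20 without Cre+ sample 2 or Cre- sample 1.

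Further probe sets of the same genes mostly pointed the same way, with a median difference of 0.54 over the 33 kept ones that were not their gene's brightest. Of the 88 member probe sets, 72 passed the signal cut for probe sets, 71 of these had a higher Cre+ mean and their median difference was 0.69, against 56.9% higher and a median of 0.04 over the 20967 probe sets tested. In limma 0 of the 72 passed the adjusted threshold, against 0.868% of all, and 2 had an unadjusted p under 0.05, against 21.2%. The common order of the arrays held for 61 of the 72, against 4.17% of all. The groups did not overlap for 7 of the 72, against 31.5% of all with both Cre+ arrays above both Cre- arrays. Cenpe and Plk4 held the probe sets at an unadjusted p under 0.05. The dimmer Cenpe probe set read 6.97 and 8.01 in Cre+ samples, against 6.34 and 6.63 in Cre- samples (difference 1.00), where the brighter one differed by 0.50. A dimmer Plk4 probe set read 5.87 and 6.56 in Cre+ samples, against 5.56 and 5.44 in Cre- samples (difference 0.71; limma adjusted p = 0.179). Both had a smaller gap between the Cre- mice than the gene's brighter probe set. The 1 kept probe set below 0 belonged to Top2a, at 6.58 and 7.36 in Cre+ samples, against 6.54 and 7.70 in Cre- samples (difference −0.15). Among members with several probe sets, Ccna2 and Aurkb agreed closely, at 0.69 and 0.70 and at 0.71 and 0.72. Kif2c spanned 0.12 to 1.01 and, with probe sets under the cut counted, Hmmr spanned 0.25 to 0.93. Counted likewise, Nek2 spanned −0.24 to 0.76 and Foxm1 −0.02 to 0.78, their lowest probe sets lying under the cut. The 16 probe sets under the cut had a median difference of 0.16.

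Genes of the mitotic machinery outside the set were measured beside it. Across 6 further lists 123 of 130 genes passed the signal cut, and 0 of the 123 passed in limma, with 19 at an unadjusted p under 0.05, against 1.47% and 21.4% of all tested genes. Their median difference was 0.30, 103 were higher and 20 lower in the Cre+ mean, and 55 had the common order of arrays, against 61.4% of tested genes higher and 4.66% in that order. Cre+ sample 2 also had the highest mean of each of these lists.

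Of 18 further kinases, cyclins and regulators, 0 passed in limma and 16 were higher, with a median of 0.37. Melk, a kinase made in dividing cells, had the largest difference, 1.27 ± 0.61 (SE), at 6.91 and 8.21 in Cre+ samples, against 5.53 and 7.05 in Cre- samples. Haspin, the kinase that marks centromeric histone H3, had the lowest, −0.38 ± 0.24 (SE). Of 31 further kinetochore and passenger genes, 0 passed and 26 were higher, with a median of 0.57. Cenpk, a subunit of the inner kinetochore, differed by 1.09 ± 0.61 (SE) and Cenpq, another inner subunit, by −0.38 ± 0.14 (SE). Cenpq read 8.52 and 8.82 in Cre+ samples, against 9.06 and 9.04 in Cre- samples, and did not share the order of the members. Of 24 further spindle and cytokinesis genes, 0 passed and 23 were higher, with a median of 0.59. Psrc1, a spindle protein, had the largest difference, 1.79 ± 0.49 (SE; limma adjusted p = 0.131). It read 8.15 and 7.30 in Cre+ samples, against 5.25 and 6.61 in Cre- samples, so the groups did not overlap and Cre+ sample 1 was highest. Troap, another spindle protein, had the lowest, −0.11 ± 0.17 (SE).

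Of 19 condensin, cohesin and separase genes, 0 passed in limma and 16 were higher, with a median of 0.26. Ncapg, a condensin subunit, differed by 1.30 ± 0.53 (SE), at 7.56 and 8.70 in Cre+ samples, against 6.19 and 7.47 in Cre- samples. Esco1, a cohesin acetyltransferase, had the lowest difference, −0.16 ± 0.11 (SE). The anaphase-promoting complex itself had the smallest median of the 6 lists. Of its 17 genes, 0 passed in limma, 12 were higher, near the 61.4% of all tested genes, and the median was 0.14, with Anapc11, the RING subunit, at 0.65 ± 0.11 (SE; limma adjusted p = 0.0647) and Anapc16 at −0.10 ± 0.20 (SE). Of 14 DREAM and MuvB regulators 0 passed, with a median of 0.15. E2f7, a repressor of the E2F family, differed by 0.85 ± 0.55 (SE). Lin52, a core subunit of the MuvB complex, had the lowest value, −0.71 ± 0.12 (SE; limma adjusted p = 0.0632), at 7.28 and 7.40 in Cre+ samples, against 8.13 and 7.98 in Cre- samples.

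Genes of the G1/S step and of DNA replication, which act before mitosis, had a median difference of 0.58 over 23 genes, with 21 higher. In limma 0 of 23 passed and 6 had an unadjusted p under 0.05, both near the shares of all tested genes, 1.47% and 21.4%. Cre- sample 1 was lowest and Cre+ sample 2 highest for 20 of 23, against 39 of 39 mitotic members and 12.7% of tested genes. Both Cre+ arrays lay above both Cre- arrays for 10 of the 23, against 35.0% of tested genes and 0 of 39 mitotic members. Cdc6, which loads the replicative helicase, had the largest difference, 1.01 ± 0.50 (SE), and the factor gene E2f2 the lowest, −0.34 ± 0.26 (SE). The median SD within groups was 0.43 for this list. Of 10 cell cycle exit genes 0 passed in limma and 4 had an unadjusted p under 0.05, against 1.47% and 21.4% of tested genes. The common order of arrays held for 0 of the 10, near the 4.66% of tested genes. Their median difference was 0.0018. Cdkn1c, a CDK inhibitor, had the largest difference, 1.67 ± 0.58 (SE; limma adjusted p = 0.188), at 9.07 and 7.27 in Cre+ samples, against 6.81 and 6.19 in Cre- samples. Cdkn2d, another CDK inhibitor, had the lowest, −0.54 ± 0.15 (SE; limma adjusted p = 0.129).

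**Figure D4:**
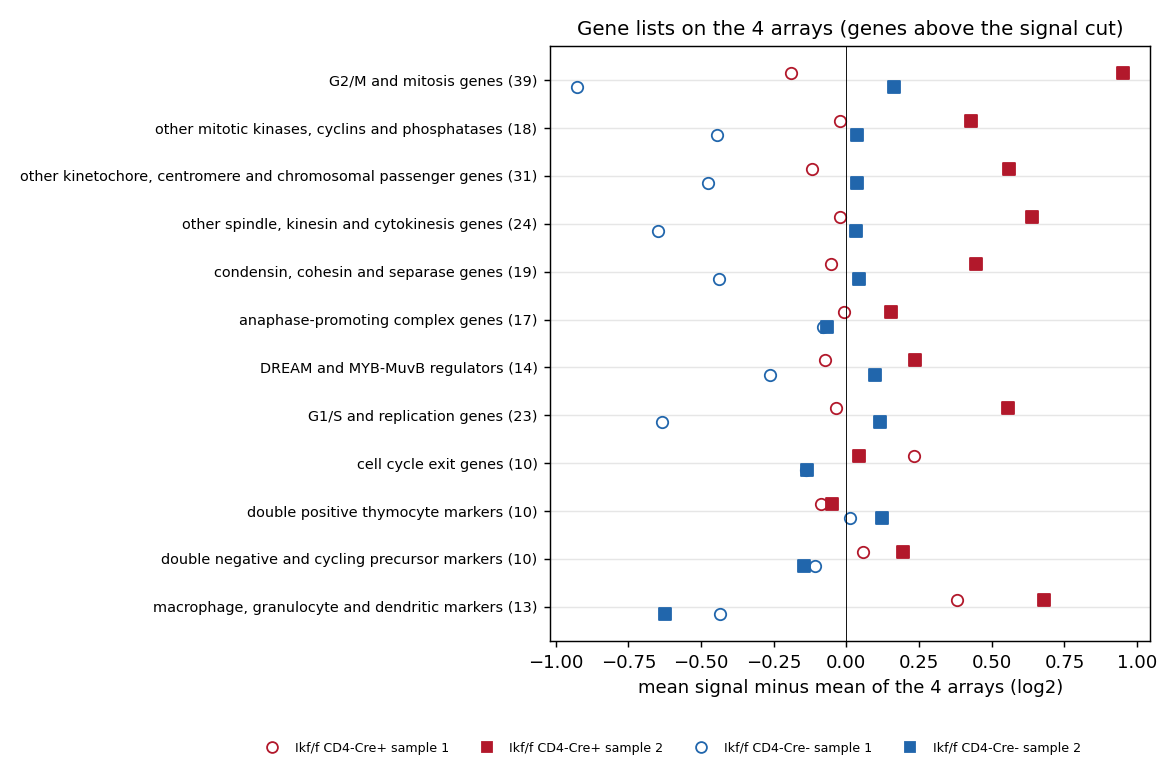
Mean log2 signal of each gene list on each array, minus the list's mean over the 4 arrays, for genes above the signal cut (numbers in brackets). Cre+ arrays are red and upper, Cre- arrays blue and lower, with circles for sample 1 and squares for sample 2. The G2/M and mitosis genes span the widest range, and the further mitotic lists and the G1/S list have Cre- sample 1 lowest and Cre+ sample 2 highest.

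Markers of the thymocyte stages were measured on the same arrays. Of 10 double positive markers 0 had the common order of arrays, which 4.66% of tested genes had, so that this count is near the share of all genes. Their summed linear signal was 55302 and 56683 in Cre+ samples, against 62099 and 62910 in Cre- samples. In limma 0 of the 10 passed and 3 had an unadjusted p under 0.05, against 1.47% and 21.4% of tested genes. Rag2 differed by −0.41 and Cd3e by 0.41. Of 12 double negative and cycling precursor markers, 0 had that order, and their summed signal was 7480 and 7157 in Cre+ samples, against 6438 and 5999 in Cre- samples. Of the 10 above the cut, Il7r, the interleukin 7 receptor, rose by 1.12 ± 0.12 (SE; limma adjusted p = 0.0266). Il2ra, which marks double negative cells, read 4.78 and 5.40 in Cre+ samples, against 5.62 and 5.37 in Cre- samples, near the cut of 5.04.

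Markers of other cells differed in how they lay on the arrays. For 18 macrophage, granulocyte and dendritic markers the summed signal was 1821 and 2257 in Cre+ samples, against 783 and 656 in Cre- samples. Of the 13 above the cut, 8 lay higher in both Cre+ arrays, against 35.0% of tested genes, and 4 rose in limma, against 1.17%: Lyz2 by 1.85, Ctss by 2.98, H2-Ab1 by 1.58 and the signalling adaptor gene Tyrobp by 0.82 (adjusted p between 0.0178 and 0.0496). S100a8, a granulocyte gene, read 4.52 and 8.38 in Cre+ samples, against 4.50 and 4.02 in Cre- samples, so it was high only on the array where the mitotic genes were also highest. The granulocyte and macrophage gene Itgam lay under the cut on all 4 arrays, at 3.60 to 3.72. Of 6 erythroid markers 5 lay under the cut, and their summed signal was 182 and 204 in Cre+ samples, against 201 and 194 in Cre- samples; Tfr2, the 1 above the cut, differed by −0.11, with 0 of 1 passing in limma. Of 6 B cell markers 3 lay under the cut, and their summed signal was 6284 and 6801 in Cre+ samples, against 7527 and 8084 in Cre- samples; 0 of the 3 kept passed in limma, Pax5 having the largest difference, 0.18, and Ighm the lowest, −0.27. Of 12 stromal and epithelial markers 7 lay under the cut. The summed signal of the 12 was 3420 and 722 in Cre+ samples, against 424 and 440 in Cre- samples, so this sum was highest on Cre+ sample 1. The median level of the 5 kept was not, at 6.39 and 6.54 in Cre+ samples, against 5.68 and 5.58 in Cre- samples. Cre+ sample 2 minus Cre+ sample 1 ran from −3.54 to 0.59 over these genes, with a median of 0.16. Of the 5 kept, 1 passed in limma: Pdgfrb rose by 1.05 (limma adjusted p = 0.0396). The part of these cells in the levels of the mitotic genes was not tested.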

How the data were processed

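RNA from double positive thymocytes of 4 mice, was amplified and biotin labelled, per the labels' protocols, and measured on Affymetrix arrays. The deposited table holds log2 signals made by the authors with RMA, per the submitters' processing notes; the base of the logarithm is not stated and was taken from the range of the values, 2.18 to 14.4. The labels name several starting amounts of RNA without saying which array had which, and no batch, so neither could be tested. RMA gives no counts, so the number of arrays limits the precision.

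Of 45037 probe sets, 34945 had 1 gene symbol in the platform annotation, 932 several and 9160 none; 34741 were matched by Entrez identifier to RefSeq and 0 symbols changed. Genes took their brightest probe set, and were kept when their mean reached the 40th percentile of gene means (5.04). The Cre+ and Cre- arrays were compared with limma 3.58.1 in R 4.3.3 (lmFit, eBayes, two-sided, Benjamini-Hochberg over 10916 genes), where the residual degrees of freedom were 2 and the prior ones 3.55; probe sets were fitted likewise over 20967 with a cut of 4.76. The fit was tested on simulated data. The 4 samples are separate mice. The members and lists were chosen with earlier results of these data known. All members were named, with Ikzf1 and, in each further list, the called genes or those with the largest and smallest difference. Il2ra, S100a8, Itgam, Xist and Kdm5d were named after their values were seen. Alternatives left out each array in turn, blocked on sample number, or used another cut on dim genes, other probe sets, another prior, centred arrays or array weights. Promoters were searched for motifs in RefSeq sequence (GRCm38.p6), with 1 chromosome left out of the search and of all promoter counts. Figures were drawn with matplotlib 3.10.9.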

Additional observations from a re-analysis of the deposited data

How the results depend on the processing

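No member passed in limma under any alternative other than the block below, and the median difference of the members stayed above 0 under every alternative run. With the sample number as a replicate block, 33 of 39 members and 790 of 10916 genes passed, against 0 and 160 without it. The labels give no litter, batch or day that the numbers 1 and 2 stand for, so they only name mice. Deviations of same-numbered samples from their group means correlated at 0.187 over genes, which with 2 pairs does not show pairing. The number of genes called was 160 in the fit of all 4 arrays, 103 without probe sets ending _a_at, _s_at or _x_at, 244 with a robust prior, and between 12 and 67 with an array left out. A filter set on all named probe sets, chosen after seeing the data, also gave 160.

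Some single differences changed sign, none of them called. Top2a was at −0.15 without probe sets ending _a_at, _s_at or _x_at, and Foxm1 at −0.0052 with arrays centred on their median. With an array left out, Plk1 ranged between −0.019 and 1.04, Aurkb between −0.049 and 1.47, Foxm1 between −0.19 and 0.24, Cenpe between −0.17 and 1.16 and Kif23 between −0.14 and 0.51. The values below 0 arose without Cre+ sample 2 and, for Aurkb (−0.011), Foxm1 (−0.18) and Cenpe (−0.15), also without Cre- sample 1. With fewer arrays the difference rests on other mice; for the remaining changes the cause was not tested.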
